A study of Mus musculus with 34 samples.

Results

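The sirtuin family was followed through RNA-seq of the aged mouse brain with and without Hdac1. Its members are the 7 genes Sirt1 to Sirt7, taken by symbol from the 23951 genes listed for every library, and all 7 were listed and passed the filter on low values in each comparison. Hippocampal RNA came from 4 control mice (Hdac1f/f), 5 Hdac1 cKO mice (Hdac1f/f, Nestin-Cre), 6 5XFAD mice (Hdac1f/f, 5XFAD) and 5 compound transgenic mice (Hdac1f/f, Nestin-Cre, 5XFAD). GFAP+ nuclei came from the cortex of 3 control (Hdac1f/f) and 4 Hdac1 cKO (Hdac1f/f, Nestin-Cre) mice. Every group carries the floxed Hdac1 alleles. Nestin-Cre acts in the neural lineage and spares microglia and vessels. In young Hdac1 cKO mice the paper still detected HDAC1 protein in microglia. The source of the Hdac1 RNA that remains in the tissue was not tested. The 5XFAD mice express mutant human transgenes of familial Alzheimer's disease from the Thy1 promoter. The methods give male mice for the aged group; control and Hdac1 cKO hippocampi are labelled 13 to 14 months, 5XFAD and compound hippocampi 13 months, and the nuclei were from mice of 13 months. Each library is 1 mouse.

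Sirtuins are deacylases that need NAD+ and release nicotinamide as they remove acetyl and longer acyl groups from lysines. They form class III of the histone deacetylases, whereas HDAC1 is a zinc-dependent class I enzyme, and SIRT1 and HDAC1 are known to act together in the response to DNA breaks. Sirt1, Sirt6 and Sirt7 encode mainly nuclear proteins, with SIRT7 in the nucleolus. SIRT2 is mainly cytoplasmic, deacetylates tubulin and is abundant in oligodendrocytes and myelin. SIRT3, SIRT4 and SIRT5 are mitochondrial.

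In the hippocampus the labels were borne out by Hdac1 and Thy1. Hdac1 was at 5.91 to 10.7 FPKM in control and 6.10 to 9.64 FPKM in 5XFAD hippocampi, against 2.36 to 3.03 FPKM in Hdac1 cKO and 1.15 to 2.52 FPKM in compound hippocampi, with no overlap. In GFAP+ nuclei it was at 9.91 to 22.3 FPKM in controls and 5.80 to 11.5 FPKM in Hdac1 cKO mice, so the groups overlapped (limma log2 difference -0.70, adjusted p = 0.984; exact permutation p = 0.114). Thy1, which shares its promoter with the 5XFAD transgenes, was at 303 to 388 FPKM in hippocampi without and 1563 to 2357 FPKM in hippocampi with 5XFAD. Markers of the choroid plexus, an epithelium beside the hippocampus, differed widely within and between groups: their 7 genes summed to 590 to 20467 FPKM in control, 59.8 to 1633 in Hdac1 cKO, 56.5 to 8003 in 5XFAD and 62.3 to 14064 in compound hippocampi. The 8 microglia markers summed to 146 to 178 FPKM in control and 145 to 171 in Hdac1 cKO, but to 269 to 337 in 5XFAD and 292 to 546 in compound hippocampi. The 8 astrocyte markers summed to 2748 to 3360 FPKM in GFAP+ nuclei, where 10 oligodendrocyte markers still reached 478 to 1321 FPKM and 7 neuron markers 190 to 272 FPKM, and Itgam, a defining microglia gene, stayed below 1 FPKM in the mean of each group. The relative depth of the hippocampal libraries ran from 0.753 to 2.35, with medians of 1.26 in control, 1.79 in Hdac1 cKO, 1.67 in 5XFAD and 1.03 in compound mice. In whole tissue, fewer cells of a type and less RNA per cell cannot be told apart. Because the control and Hdac1 cKO labels are worded differently from the 5XFAD and compound labels, and no source says that they were prepared together, preparation and 5XFAD cannot be told apart either.

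The hippocampus held 2 abundant sirtuins and 5 scarcer ones. Sirt2 and Sirt3 made up 37.8% ± 4.13 and 35.1% ± 3.84 (SD, n = 20) of the summed FPKM of the family, and both lay above the 92nd percentile of listed genes in each group. Sirt2 ranged from 40.8 to 73.0 FPKM and Sirt3 from 32.6 to 66.3 FPKM over the 20 mice. Their ranges overlapped, and Sirt2 was the higher of the pair in 12 of 20 mice. Sirt6, a nuclear enzyme of DNA repair and telomere chromatin, followed at 10.4 to 23.9 FPKM, below Sirt3 in all 20 mice. Sirt7, which deacetylates histone H3 and supports ribosomal RNA transcription, was at 6.67 to 15.4 FPKM, below Sirt6 in 19 of 20 mice. Sirt5, which removes succinyl and malonyl groups in mitochondria, was at 2.76 to 10.3 FPKM, and Sirt4, a mitochondrial regulator of glutamate and fatty acid use, at 1.53 to 4.41 FPKM. Sirt1 was the lowest, at 1.16 to 3.48 FPKM, and lay below Sirt4 in 15 of 20 mice. From Sirt6 downward the ranges of neighbouring genes overlapped over the 20 mice, and Sirt1 and Sirt4 changed places in the controls, where their means were 2.50 ± 0.565 and 2.44 ± 0.270 FPKM (SD, n = 4). In FPKM a long transcript is divided by more bases, although 3′ libraries read only its end, which places long transcripts such as Sirt1 lower on this scale.

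**Figure D1:**
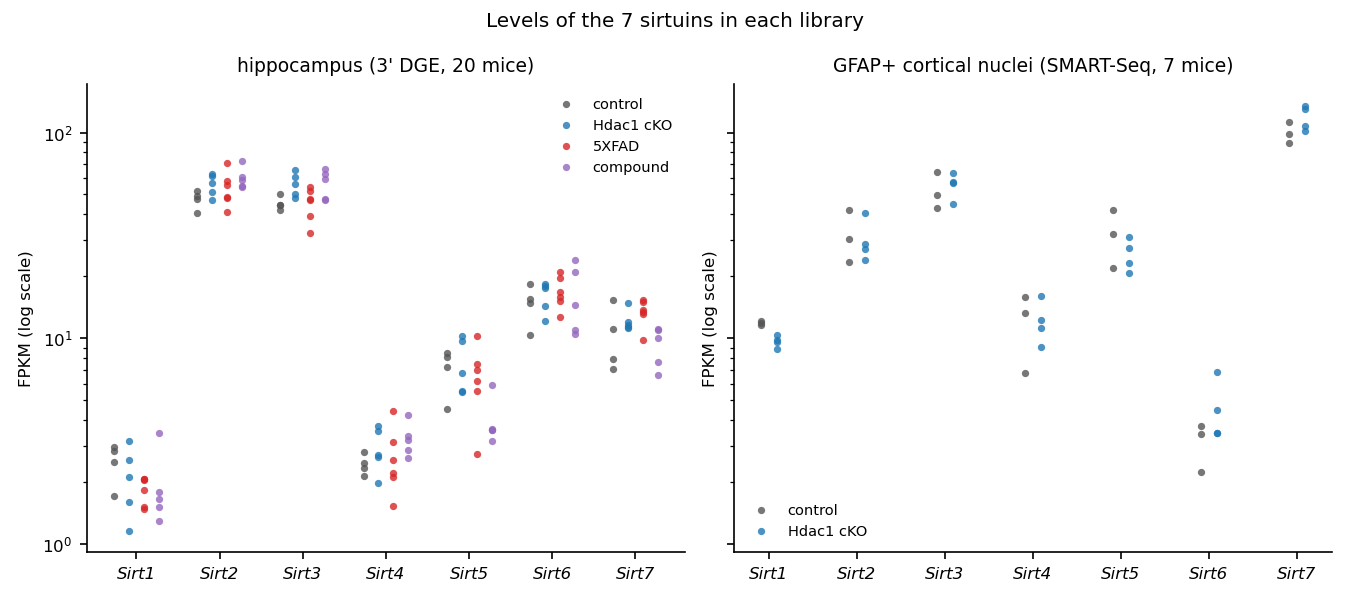
FPKM on a log axis for each sirtuin in 20 hippocampal libraries (left) and 7 libraries of GFAP+ nuclei (right), 1 point per mouse and coloured by group. In the hippocampus Sirt2 and Sirt3 lie highest and Sirt1 lowest; in the nuclei Sirt7 lies highest, at 89.4 to 135 FPKM, and Sirt6 lowest, at 2.24 to 6.83 FPKM.

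In GFAP+ cortical nuclei the order was different. Sirt7 was the highest in all 7 mice at 89.4 to 135 FPKM, 2.04 times the mean of Sirt3, which was at 42.9 to 64.2 FPKM. Sirt2 at 23.6 to 42.1 FPKM and Sirt5 at 20.7 to 42.2 FPKM overlapped, with Sirt2 higher in 5 of 7 mice. Sirt4 at 6.81 to 15.99 FPKM and Sirt1 at 8.83 to 12.2 FPKM overlapped as well. Sirt6 was the lowest in all 7 mice at 2.24 to 6.83 FPKM. Sirt7 thus held 41.3% ± 6.60 (SD, n = 3) of the family sum in control nuclei, against 8.03% ± 3.08 (SD, n = 4) in control hippocampus, and Sirt6 held 1.29% ± 0.348 against 11.4% ± 2.56. These levels stand side by side only, since nuclei and tissue also differ in brain region, RNA compartment and library kit.

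The family was compared between groups in 10 limma fits, which makes 70 tests of a sirtuin, on log2(FPKM + 1) with p-values adjusted over all genes tested. No sirtuin had an adjusted p under 0.05 in any of them. The comparisons against control share the same 4 control mice.

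**Figure D2:**
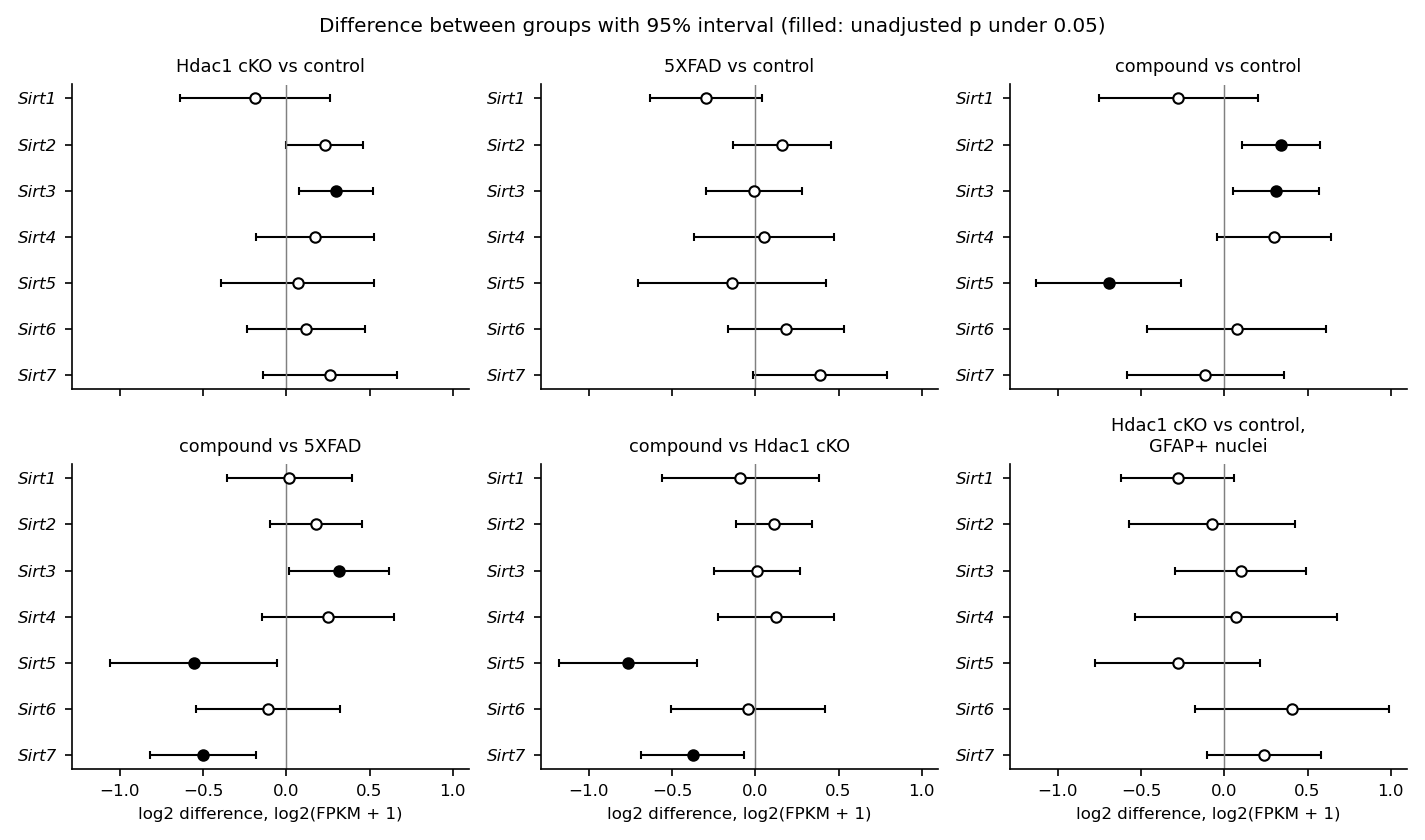
Difference of each sirtuin in 6 comparisons of 2 groups, on the log2(FPKM + 1) scale with its 95% interval from limma; filled points have an unadjusted p under 0.05. Sirt3 lies to the right in the comparisons of mice with and without Hdac1, and Sirt5 lies to the left in the 3 comparisons of compound mice, farthest against Hdac1 cKO (-0.76); no adjusted p is under 0.05.

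Hdac1 deletion alone gave small differences across the family. Of the 7 sirtuins, 6 had higher and 1 lower mean log2 values in Hdac1 cKO than in control hippocampus, with a median difference of 0.18 against -0.00068 over all genes. At an adjusted p under 0.05, 0 of 7 were called, where 0.154% of the 14265 genes tested were. At an unadjusted p under 0.05, 1 of 7 was called, Sirt3, where 11.7% of genes were. This count was 2 without control mouse 1 or 3 or Hdac1 cKO mouse 4 or 5, with Sirt7 added without control mouse 3 and Sirt2 in the others. The exact permutation test also gave 1 of 7 under 0.05, where 10.4% of genes were. On the fold scale the 95% intervals ran from 0.64 to 1.20 for Sirt1, 1.00 to 1.38 for Sirt2, 0.88 to 1.44 for Sirt4, 0.76 to 1.44 for Sirt5, 0.85 to 1.39 for Sirt6 and 0.91 to 1.59 for Sirt7.

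Sirt3 (chr7:148049569-148068208, minus strand, mm9), the main protein deacetylase of mitochondria, was the member that stood highest without Hdac1. It was at 50.1, 44.4, 42.2 and 44.2 FPKM in control mice, against 56.0, 65.4, 60.5, 48.2 and 50.2 FPKM where Hdac1 was deleted. The groups overlapped by 1 control mouse, and Hdac1 cKO values exceeded control values in 19 of 20 pairs of mice. The log2 difference was 0.30 (95% interval 0.073 to 0.52; p = 0.0135, adjusted p = 0.276), and the two-sided exact permutation p was 0.0317 with 0.0159 the smallest possible. On the 5XFAD background the same comparison set 32.6, 47.4 and 54.4 FPKM, the lowest, median and highest 5XFAD mouse, against 47.0, 66.3, 47.7, 59.7 and 62.9 FPKM in compound mice. These groups overlapped, with a log2 difference of 0.32 (p = 0.0390, adjusted p = 0.734; exact permutation p = 0.0693). Averaged over both backgrounds, the difference with Hdac1 loss was 0.31 (95% interval 0.11 to 0.50; adjusted p = 0.249), and its interaction with 5XFAD was 0.019 (95% interval -0.37 to 0.40). In that averaged comparison 2 of 7 sirtuins, Sirt3 and Sirt2, had an unadjusted p under 0.05, where 9.38% of genes did, and 0 of 7 had an adjusted p under 0.05, where 0.0278% did. With the choroid plexus score as a covariate the unadjusted count was 0 of 7, and the averaged difference of Sirt3 was 0.22 (adjusted p = 0.874). In the Hdac1 cKO comparison alone that covariate brought the Sirt3 difference from 0.30 to 0.078 (adjusted p = 0.937). The score, the mean log2(FPKM + 1) of the choroid plexus markers, was 2.57 to 6.26 in control and 1.30 to 3.23 in Hdac1 cKO mice. Score and group thus largely coincided, and that fit cannot tell them apart for any member. As deviations from the group means over the 20 hippocampal mice, Pearson's r between Sirt3 and the score was -0.26 (permutation adjusted p = 0.850). Removing the choroid plexus genes from the data left the averaged difference at 0.29. In GFAP+ nuclei Sirt3 was at 42.9, 64.2 and 49.7 FPKM in controls and 56.7, 57.6, 63.5 and 44.9 FPKM in Hdac1 cKO mice, overlapping throughout (log2 difference 0.098, 95% interval -0.29 to 0.49).

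Sirt2 (chr7:29551754-29573684, plus strand, mm9) had the next lowest p of the members after Sirt3 in Hdac1 cKO against control mice. It was at 52.3, 49.1, 40.8 and 47.6 FPKM in control, 61.2, 63.1, 56.9, 51.4 and 47.0 FPKM in Hdac1 cKO, and 58.8, 60.8, 55.0, 73.0 and 54.7 FPKM in compound hippocampi. The lowest, median and highest 5XFAD mice were at 41.0, 52.0 and 71.2 FPKM. Compound mice lay above all 4 control mice, whereas the other groups overlapped with the controls. The log2 difference from control was 0.34 in compound mice (95% interval 0.10 to 0.58; p = 0.00859, adjusted p = 0.249; exact permutation p = 0.0159) and 0.23 in Hdac1 cKO mice (p = 0.0528, adjusted p = 0.434). Averaged over backgrounds, Hdac1 loss gave 0.21 (95% interval 0.022 to 0.39; adjusted p = 0.451). The 10 oligodendrocyte markers, summed, stood at 1372 to 1440 FPKM in control, 1170 to 1401 in Hdac1 cKO, 1236 to 1716 in 5XFAD and 1365 to 2217 in compound hippocampi. With that marker score as a covariate, Sirt2 differed from control by 0.32 in Hdac1 cKO mice (adjusted p = 0.384). Sirt3 differed by 0.39 there (adjusted p = 0.306). Between compound and control mice the Sirt2 difference was 0.28 (adjusted p = 0.380). With the choroid plexus score as a covariate it was 0.27 (adjusted p = 0.686), and the difference of Hdac1 cKO mice turned to -0.049 (adjusted p = 0.965).

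The 250 bases before RefSeq starts of Sirt2, Sirt3 and Sirt5, the members with the lowest p-values of the two-group comparisons against control, are shown as RefSeq gives them, and each matched the mm9 genome at 1 place. These starts lie inside the mm9 spans printed for the genes, so the windows of Sirt2 and Sirt5 run into the span and that of Sirt3 lies within it. Capitals mark GGGCGG or its reverse complement, the core of the GC box that transcription factors of the SP and KLF families bind.
Sirt2, chr7:29551521-29551770, plus strand: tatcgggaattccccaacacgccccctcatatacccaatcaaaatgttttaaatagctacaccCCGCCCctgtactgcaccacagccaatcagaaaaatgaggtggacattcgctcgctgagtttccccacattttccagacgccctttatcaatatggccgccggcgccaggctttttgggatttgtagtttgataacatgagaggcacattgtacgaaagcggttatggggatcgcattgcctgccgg
Sirt3, chr7:148067769-148068018, minus strand: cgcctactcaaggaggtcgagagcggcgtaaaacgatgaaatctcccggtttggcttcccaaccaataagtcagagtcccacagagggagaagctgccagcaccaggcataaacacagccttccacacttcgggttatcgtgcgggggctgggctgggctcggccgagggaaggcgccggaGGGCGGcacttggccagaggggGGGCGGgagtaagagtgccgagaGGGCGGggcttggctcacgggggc
Sirt5, chr13:43460654-43460903, plus strand: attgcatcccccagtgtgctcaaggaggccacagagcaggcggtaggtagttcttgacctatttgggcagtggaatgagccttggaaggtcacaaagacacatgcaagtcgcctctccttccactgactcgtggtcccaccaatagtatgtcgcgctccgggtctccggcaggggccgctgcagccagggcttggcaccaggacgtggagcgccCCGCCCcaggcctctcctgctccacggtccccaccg
In the bases shown Sirt3 holds 3 copies of the core, and Sirt2 and Sirt5 hold 1 each, which in both lies within the longer GC box GGGGCGGGG on the reverse strand. GGGCGG on either strand was found in the 250 bases before the start for 32.7% of the 32851 RefSeq promoter windows and for 6 of the 9 sirtuin windows. Sirt3 has a second window, at the start of the span given above, which holds no copy; the one shown precedes a start inside that span. A match of letters describes the window only.

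Sirt5 (chr13:43460882-43490571, plus strand, mm9) stood apart in the compound mice. It was at 8.47, 8.09, 7.26 and 4.51 FPKM in control mice and at 9.68, 10.2, 5.47, 5.53 and 6.75 FPKM in Hdac1 cKO mice. The lowest, median and highest 5XFAD mice were at 2.76, 6.63 and 10.3 FPKM. In compound mice it was at 3.61, 3.58, 3.16, 5.91 and 3.58 FPKM. Of the 5 compound mice, 4 lay below all control and Hdac1 cKO mice, and 1 overlapped with both groups. Compound mice were lower than control by 0.70 on the log2 scale (95% interval of the difference -1.13 to -0.26; p = 0.00471, adjusted p = 0.200; exact permutation p = 0.0317), and the ratio of mean FPKM was 0.560. Against Hdac1 cKO mice the log2 difference was -0.76 (95% interval -1.18 to -0.35; p = 0.00159, adjusted p = 0.0852; exact permutation p = 0.0238). Against 5XFAD mice it was -0.56 (95% interval -1.06 to -0.057; p = 0.0314, adjusted p = 0.734; exact permutation p = 0.0779). Neither single genotype differed from control beyond the spread between mice, with -0.14 for 5XFAD (95% interval -0.70 to 0.43) and 0.068 for Hdac1 cKO (95% interval -0.39 to 0.53). The interaction term was -0.62 (95% interval -1.33 to 0.083; adjusted p = 0.603). By the thresholds of the study's methods for a differentially expressed gene, a fold change of 1.5 and an unadjusted p under 0.05, Sirt5 was the only member to pass in compound against control mice, where 4.24% of genes did, and in compound against Hdac1 cKO mice, where 3.55% did.

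The values of Sirt5 rest on few fragments. Its FPKM steps gave whole fragments in all 20 hippocampal libraries, 9 to 67 with a median of 38. The compound libraries held 13, 14, 9, 50 and 22 fragments, and the counting intervals of the first 3 reached 6.17, 6.01 and 6.00 FPKM. The compound mouse with 50 fragments was the one highest in Sirt5 at 5.91 FPKM (95% Poisson interval 4.39 to 7.79). These intervals cover counting error only.

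**Figure D3:**
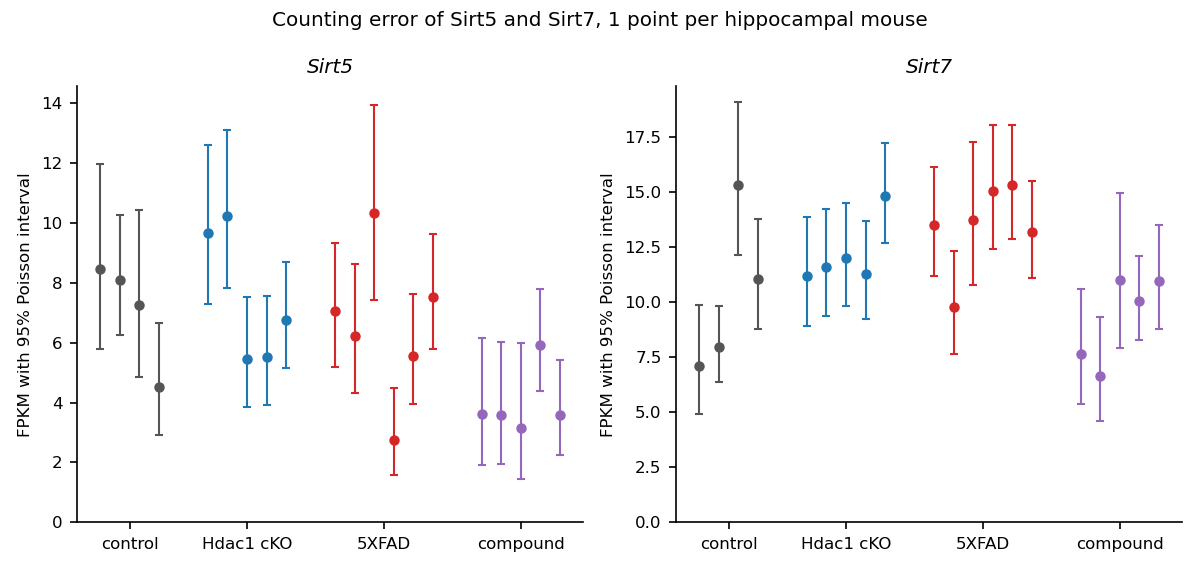
FPKM of Sirt5 (left) and Sirt7 (right) in each of the 20 hippocampal mice, by group, with the exact 95% Poisson interval of the fragments recovered from the FPKM steps. For Sirt5, 4 of 5 compound mice lie between 3.16 and 3.61 FPKM, with upper limits that reach into the range of the other groups.

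Sirt5 was also set against the oligodendrocyte markers from mouse to mouse. As deviations from the group means over the 20 hippocampal mice, Pearson's r between Sirt5 and the oligodendrocyte score was 0.66 (permutation p = 0.00251, adjusted p = 0.0527 over 42 pairs of a sirtuin and a marker score) and Spearman's rho was 0.57 (permutation p = 0.0136, adjusted p = 0.286). Without the 2 mice farthest from the median score, 5XFAD mouse 4 and compound mouse 4, r was 0.49. Among the 3 genes most like Sirt5 was Aspa, the aspartoacylase of oligodendrocytes and one of those markers. The mean FPKM in compound mice was the higher for 8 of these 10 markers against control, 10 of 10 against Hdac1 cKO and 7 of 10 against 5XFAD mice. Mouse by mouse the groups overlapped. The oligodendrocyte score was 6.30, 6.04, 6.01, 6.71 and 5.97 in compound mice, against 6.05 to 6.12 in control mice. It was 5.80 to 6.13 in Hdac1 cKO and 5.81 to 6.42 in 5XFAD mice. Compound mice 1 and 4 lay above all control mice, and the other compound mice lay below all of them. With the oligodendrocyte score as a covariate, the Sirt5 difference between compound and Hdac1 cKO mice was -0.99 (adjusted p = 0.0242), and the mean difference with 5XFAD over both genotypes went from -0.45 (adjusted p = 0.251) to -0.64 (adjusted p = 0.0231). In that mean effect of 5XFAD without the covariate, 0 of 7 sirtuins had an adjusted p under 0.05, where 2.20% of genes did, and 1 of 7, Sirt5, had an unadjusted p under 0.05, where 11.9% did. Leaving out compound mouse 4 brought the comparison with Hdac1 cKO mice to -0.89 (adjusted p = 0.0362).

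Markers of other cell types also set the compound mice apart, beside the values of Sirt5 and Sirt7. The score of the 5 endothelium markers, their mean log2(FPKM + 1), was 1.33 to 1.45 in compound mice and 1.47 or more in every other hippocampal mouse. The score of the 8 astrocyte markers was 6.14 to 6.46 in compound mice and 6.12 or less in every other. As summed FPKM both lists overlapped with other groups: endothelium markers stood at 10.1 to 12.8 FPKM in compound against 11.5 to 18.5 in control, 11.5 to 14.1 in Hdac1 cKO and 12.4 to 17.0 in 5XFAD mice, and astrocyte markers at 1149 to 1290 against 945 to 1062, 954 to 1074 and 1062 to 1223. Of the 5 endothelium markers, 5 had their lowest group mean in compound mice, and of the 8 astrocyte and 8 microglia markers 6 and 8 had their highest. The endothelium markers Cldn5, Pecam1 and Cdh5 averaged only 0.73, 0.42 and 0.65 FPKM in compound mice, near the floor. The share of all genes with such means was not computed. Their part in the differences of compound mice was not tested.

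**Figure D4:**
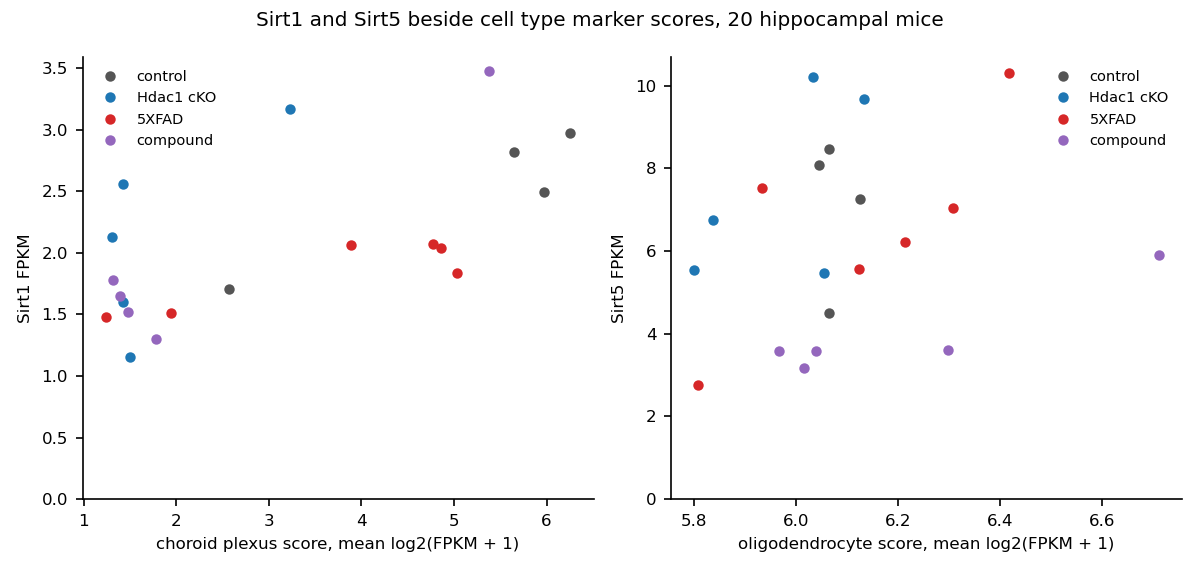
Sirt1 FPKM against the choroid plexus score (left) and Sirt5 FPKM against the oligodendrocyte score (right), each score being the mean log2(FPKM + 1) of its markers, with 1 point for each of 20 hippocampal mice. Sirt1 is highest in mice with a high choroid plexus score within each group, and 4 of 5 compound mice lie at 3.16 to 3.61 FPKM of Sirt5, while the other, at 5.91 FPKM, has the highest oligodendrocyte score of all 20 mice.

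In compound against control mice the members with a low p were Sirt2, Sirt3 and Sirt5. At an adjusted p under 0.05, 0 of 7 sirtuins were called, where 0.662% of 14348 genes were, and at an unadjusted p under 0.05, these 3 of 7 were, where 10.5% of genes were. With the choroid plexus score as a covariate 1 of 7 was, and the Sirt3 difference was 0.11. The exact permutation test placed 4 of 7 under 0.05, adding Sirt4, where 9.92% of genes were. The groups did not overlap for 1 of 7, Sirt2, which 2.75% of genes matched in that direction. Sirt4 (chr5:115928019-115934734, minus strand, mm9) was at 2.34, 2.49, 2.15 and 2.79 FPKM in control and 2.62, 2.88, 4.23, 3.35 and 3.22 FPKM in compound mice. Only 1 pair of mice went against the higher level in compound mice (log2 difference 0.30, 95% interval -0.044 to 0.64; p = 0.0814, adjusted p = 0.536; exact permutation p = 0.0317).

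Sirt7 (chr11:120479686-120486554, minus strand, mm9) followed neither genotype on its own. It was at 7.10, 7.96, 15.4 and 11.1 FPKM in control mice and at 11.2, 11.6, 12.01, 11.3 and 14.8 FPKM in Hdac1 cKO mice. The lowest, median and highest 5XFAD mice were at 9.79, 13.6 and 15.3 FPKM. In compound mice it was at 7.66, 6.67, 11.0, 10.1 and 11.0 FPKM. All 5 compound mice lay below all 5 Hdac1 cKO mice, the control mice overlapped with both groups, and 1 5XFAD mouse reached into the compound range. The log2 difference of compound mice was -0.38 from Hdac1 cKO mice (95% interval -0.69 to -0.065; p = 0.0213, adjusted p = 0.353; exact permutation p = 0.00794, the smallest possible) and -0.50 from 5XFAD mice (95% interval -0.82 to -0.18; p = 0.00435, adjusted p = 0.700; exact permutation p = 0.0173). Against control it was 0.26 in Hdac1 cKO (95% interval -0.14 to 0.67), 0.39 in 5XFAD (95% interval -0.014 to 0.79) and -0.11 in compound mice (95% interval -0.59 to 0.36). Without control mouse 3, which was the highest control, the first 2 were 0.46 (adjusted p = 0.350) and 0.58 (adjusted p = 0.222), and without control mouse 1 they were 0.12 and 0.24. With the choroid plexus score as a covariate the first was 0.87 (adjusted p = 0.445). The interaction term for Sirt7 was -0.76 (95% interval -1.27 to -0.26; adjusted p = 0.383). In the interaction, 0 of 7 sirtuins had an adjusted p under 0.05, where 0% of 14389 genes did, and 1 of 7 had an unadjusted p under 0.05, where 8.97% of genes did. Leaving out each of the 20 mice in turn gave interactions from -0.96 to -0.62.

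The start of Sirt7 overlaps the end of Mafg, a small Maf transcription factor gene on the same strand, by 124 bases in the mm9 annotation, so some fragments could be assigned to either gene. The 30 bases around the AATAAA sequence, a signal for cleavage and polyadenylation, are shown for that reason, with the signal in capitals.
Sirt7, chr11:120486432-120486461, minus strand: gtatatgatcAATAAAcgccttttaaagag
The signal lies inside the Sirt7 span given above, within the bases shared with Mafg, and begins 123 bases before a RefSeq start that lies farther inside that span. AATAAA on the gene's own strand was found in the 250 bases before the start for 10.4% of RefSeq windows and for 1 of the sirtuin windows. Mafg was at 14.8 to 25.3 FPKM in the hippocampus and 153 to 233 FPKM in GFAP+ nuclei, so it was high in the same libraries as Sirt7. Between compound and Hdac1 cKO mice the log2 difference of Mafg was 0.029 where that of Sirt7 was -0.38, and between compound and 5XFAD mice it was -0.19 where that of Sirt7 was -0.50. Its part in the level of Sirt7 in the nuclei was not tested. Sirt7 had 34 to 172 whole fragments per hippocampal library, with a median of 87.

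Compound against 5XFAD mice called 0 of 7 sirtuins at an adjusted p under 0.05, where 0.00698% of 14326 genes were called. At an unadjusted p under 0.05 it called 3 of 7 (Sirt3, Sirt5 and Sirt7), where 6.61% of genes were called, and with the choroid plexus score as a covariate 1 of 7. The exact permutation test placed 1 of 7, Sirt7, under 0.05, where 6.49% of genes were. Compound against Hdac1 cKO mice called 0 of 7 at an adjusted p under 0.05, where 1.49% of 14195 genes were called. At an unadjusted p under 0.05 it called 2 of 7 (Sirt5 and Sirt7), where 10.3% were, and the exact permutation test gave the same count, where 10.1% were. The groups did not overlap for 1 of 7, Sirt7, which 0.902% of genes matched in that direction. The test over all 4 hippocampal groups gave an unadjusted p under 0.05 for 3 of 7 (Sirt3, Sirt5 and Sirt7), where 13.6% of genes did, with adjusted p from 0.253 to 0.287. None of the 7 had an adjusted p under 0.05 there, where 1.89% of genes did.

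In the main limma fit 5XFAD alone moved no member beyond its spread. At an adjusted p under 0.05, 0 of 7 were called, where 0.708% of 14402 genes were, and at an unadjusted p under 0.05 also 0 of 7, where 10.7% were. The exact permutation test placed 1 of 7, Sirt1, under 0.05, where 9.74% of genes were. On the fold scale the 95% intervals of limma were 0.91 to 1.37 for Sirt2, 0.81 to 1.22 for Sirt3, 0.77 to 1.39 for Sirt4, 0.61 to 1.34 for Sirt5 and 0.89 to 1.45 for Sirt6.

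**Figure D5:**
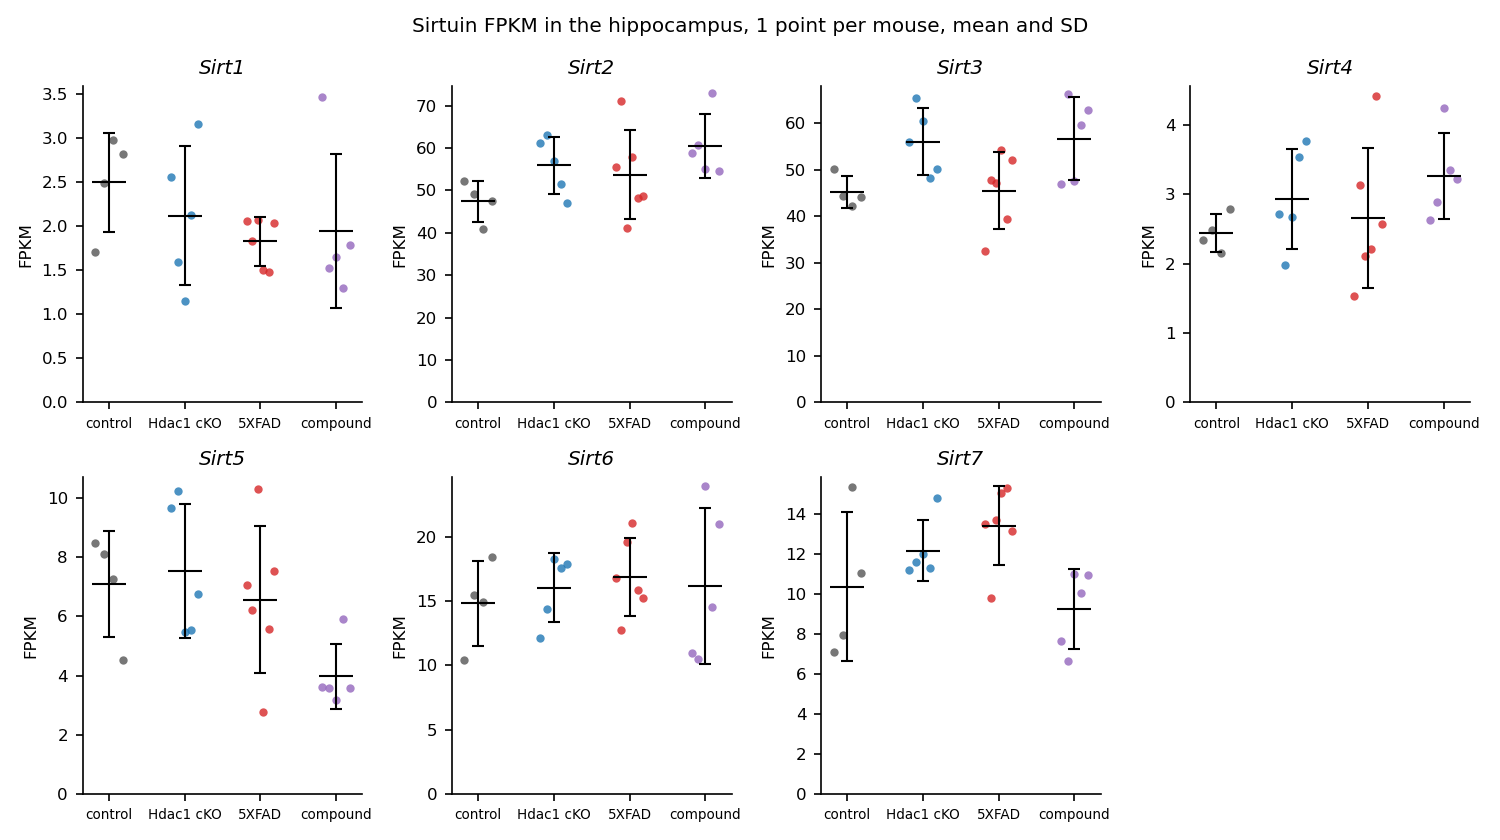
FPKM of the 7 sirtuins in the 4 hippocampal groups, 1 point per mouse, with the mean (horizontal bar) and SD (error bar); each axis starts at 0 and has its own scale. The groups overlap in most panels; the Sirt2 values of compound mice lie above those of all 4 control mice, and the Sirt7 values of compound mice lie below those of all Hdac1 cKO mice.

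Sirt1 (chr10:62781753-62844452, minus strand, mm9), the partner of HDAC1 in the DNA damage response, was the lowest member and gave wide intervals. It was at 1.71, 2.49, 2.98 and 2.82 FPKM in control, 2.56, 1.60, 1.16, 2.13 and 3.17 FPKM in Hdac1 cKO, and 3.48, 1.52, 1.65, 1.30 and 1.78 FPKM in compound mice. The lowest, median and highest 5XFAD mice were at 1.48, 1.94 and 2.08 FPKM. All groups overlapped. Its log2 difference from control was -0.19 in Hdac1 cKO (95% interval -0.64 to 0.26; p = 0.382), -0.30 in 5XFAD (95% interval -0.63 to 0.041; p = 0.0802; exact permutation p = 0.0476) and -0.28 in compound mice (95% interval -0.75 to 0.20; p = 0.230). Without compound mouse 1, the highest of its group, the last was -0.44 (adjusted p = 0.382). The averaged difference with Hdac1 loss was -0.084 (95% interval -0.36 to 0.20). With single mice left out, the Hdac1 cKO difference ran from -0.31 to -0.064 and the averaged one from -0.16 to -0.022.

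In each group the mouse with the highest Sirt1 was among those with the most choroid plexus RNA. Ttr, the most abundant choroid plexus marker, was lowest among controls in control mouse 1 at 576 FPKM, which also had the lowest Sirt1 of that group. It was highest among Hdac1 cKO mice in mouse 5 at 1608 FPKM and among compound mice in mouse 1 at 13910 FPKM, and these had the highest Sirt1 of their groups, 3.17 and 3.48 FPKM. The 2 5XFAD mice with Ttr at 53.8 and 153 FPKM had Sirt1 at 1.48 and 1.51 FPKM, below the 4 with Ttr from 3058 to 7892 FPKM. The other 4 Hdac1 cKO mice, with Ttr from 56.5 to 106 FPKM, still ranged from 1.16 to 2.56 FPKM of Sirt1. As deviations from the group means over the 20 mice, Pearson's r between Sirt1 and the choroid plexus score was 0.76 (permutation p = 0.00081, adjusted p = 0.0340) and Spearman's rho was 0.71 (permutation p = 0.00178, adjusted p = 0.0748). By r this was the 1 pair of 42 with an adjusted p under 0.05. Without the 2 mice farthest from the median score, compound mouse 1 and control mouse 1, r was 0.60. Scores of mice in 1 group fell into high and low values, so r rests on few mice at each end. With the choroid plexus score as a covariate, the difference of Sirt1 from control turned to 0.39 in Hdac1 cKO (adjusted p = 0.766) and 0.22 in compound mice (adjusted p = 0.875), and went from -0.30 to -0.14 in 5XFAD mice (adjusted p = 0.829).

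Sirt6 (chr10:81084530-81090542, minus strand, mm9) had an adjusted p above 0.05 in every fit. It was at 10.4, 15.5, 14.9 and 18.4 FPKM in control, 12.1, 14.4, 18.3, 17.5 and 17.9 FPKM in Hdac1 cKO, and 11.0, 10.5, 23.9, 14.5 and 21.0 FPKM in compound mice, and 5XFAD mice had a lowest, median and highest value of 12.8, 16.3 and 21.0 FPKM. Compound mice spanned the widest range, and all groups overlapped. The averaged difference with Hdac1 loss was 0.0034 on the log2 scale (95% interval -0.29 to 0.30), and that with 5XFAD was 0.070 (95% interval -0.22 to 0.36). In Hdac1 cKO against control mice the difference was 0.12, and 0.62 with the choroid plexus score as a covariate (adjusted p = 0.555).

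In GFAP+ nuclei no sirtuin differed between Hdac1 cKO and control mice by limma: 0 of 7 had an adjusted p under 0.05, where 0.0133% of 15070 genes did, and 0 of 7 had an unadjusted p under 0.05, where 4.70% did. With 3 against 4 mice the exact permutation p cannot go below 0.0571, so it cannot pass 0.05. Sirt1 was the 1 member without overlap, at 12.2, 11.8 and 11.6 FPKM in control and 10.3, 9.77, 9.58 and 8.83 FPKM in Hdac1 cKO nuclei, which 2.75% of genes matched in that direction. Its log2 difference was -0.28 (95% interval -0.62 to 0.059; p = 0.0963, adjusted p = 0.984; exact permutation p = 0.0571). Sirt6 was at 3.74, 3.45 and 2.24 FPKM in control and 6.83, 4.48, 3.48 and 3.48 FPKM in Hdac1 cKO nuclei (log2 difference 0.41, 95% interval -0.17 to 0.99). Sirt7 was at 113, 98.5 and 89.4 FPKM in control and 135, 102, 131 and 107 FPKM in Hdac1 cKO nuclei (log2 difference 0.24, 95% interval -0.10 to 0.58). Both pairs of groups overlapped. Without Hdac1 cKO mouse 1 the Sirt6 difference was 0.23. Sirt5 was at 22.0, 32.0 and 42.2 FPKM against 27.5, 20.7, 23.2 and 31.2 FPKM (log2 difference -0.28, 95% interval -0.78 to 0.21). It was -0.52 without control mouse 1 (adjusted p = 0.980) and -0.064 without control mouse 4. The choroid plexus markers summed to 19.2 to 156 FPKM in control and 117 to 271 FPKM in Hdac1 cKO nuclei, and the oligodendrocyte markers to 679 to 1321 and 478 to 1214 FPKM. With the oligodendrocyte score as a covariate the differences of Sirt1, Sirt5, Sirt6 and Sirt7 were -0.30, -0.22, 0.30 and 0.22, and the part of the choroid plexus markers was not tested. For Sirt2 and Sirt4 the differences were -0.073 and 0.073, with intervals that reached from -0.57 to 0.42 and from -0.53 to 0.68.

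Genes around the sirtuins were read from 4 lists. The first holds 14 genes of NAD synthesis and salvage, which supply the cosubstrate, and 11 of them passed the filter in the hippocampal comparisons. None of the 11 had an adjusted p under 0.05 in any comparison, where 0% to 2.20% of all genes did. In Hdac1 cKO against control mice, 0 were higher and 2 lower at an unadjusted p under 0.05, where 4.91% of all genes were higher and 6.84% lower, with a median log2 difference of 0.047 over the list. Haao, an enzyme of NAD synthesis from tryptophan and one of these 2, was at 0.60 to 1.71 FPKM in control, 0.56 to 3.83 FPKM in 5XFAD and 0.55 to 2.95 FPKM in compound mice, and was listed at 0 in 3 of 5 Hdac1 cKO mice. It passed the filter only through the groups where it was higher, so these values are a description. Naprt1, which makes NAD from nicotinic acid, was at 2.49 to 6.02 FPKM in control and 5.59 to 9.96 FPKM in 5XFAD mice (log2 difference 0.75, adjusted p = 0.153), and it was lower in compound than in 5XFAD mice by 0.49 (adjusted p = 0.734). In compound against control mice 0 of 11 had an unadjusted p under 0.05, where 10.5% of all genes did, and Nmnat1 had the smallest (adjusted p = 0.5003). In GFAP+ nuclei 0 of 10 did, where 4.70% of all genes did, and Nampt, the rate-limiting enzyme of NAD salvage, had the smallest (log2 difference -0.52, adjusted p = 0.984).

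The second list holds 9 enzymes that consume NAD or methylate nicotinamide, of which 8 were tested. None had an adjusted p under 0.05, against the same 0% to 2.20% of all genes. At an unadjusted p under 0.05, 0 were higher and 2 lower in Hdac1 cKO, 0 and 1 in 5XFAD and 0 and 0 in compound against control mice, where 11.7%, 10.7% and 10.5% of all genes passed in either direction. Parp3, a poly(ADP-ribose) polymerase family member of DNA repair, was at 2.02 to 4.49 FPKM in control, 0.88 to 2.36 FPKM in Hdac1 cKO and 2.56 to 5.24 FPKM in compound mice. The last 2 groups did not overlap (log2 difference 0.74, adjusted p = 0.106), which 2.44% of genes matched in that direction, and the first 2 overlapped (-0.53, adjusted p = 0.345). Parp2, another polymerase that senses DNA breaks, was at 14.8 to 25.2 FPKM in control and 10.8 to 17.2 FPKM in 5XFAD mice (log2 difference -0.52, adjusted p = 0.234). It had the smallest p of the list in compound against control mice (log2 difference -0.30, adjusted p = 0.566) and against 5XFAD mice (0.22, adjusted p = 0.772) as well. In GFAP+ nuclei that place went to Sarm1, an NADase of axon degeneration (log2 difference -0.64, adjusted p = 0.984). For the mean effect of Hdac1 loss it went to Cd38, an NAD glycohydrolase (0.20, adjusted p = 0.728).

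The third list holds 17 regulators and deacetylation targets of SIRT1, Hdac1 among them, of which 15 were tested. Hdac1 fell in Hdac1 cKO against control (log2 difference -1.23, adjusted p = 0.0236), in compound against control (-1.60, adjusted p = 0.00266) and in compound against 5XFAD mice (-1.66, adjusted p = 0.000785), as the deletion sets. No other gene of the list passed in any comparison. At an unadjusted p under 0.05, Hdac1 included, 1 was higher and 2 were lower in Hdac1 cKO, 0 and 0 in 5XFAD and 0 and 1 in compound against control mice, beside the 11.7%, 10.7% and 10.5% of all genes given above. Nbn, of the complex that senses DNA breaks, had the smallest p in 5XFAD against control mice (-0.27, adjusted p = 0.491). Rps19bp1, an activator of SIRT1, had it in compound against Hdac1 cKO mice (-0.26, adjusted p = 0.243), and Crtc1, a coactivator of CREB, had it in the interaction (-0.53, adjusted p = 0.471).

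The fourth list holds 14 mitochondrial substrates of sirtuins, of which 13 were tested and none had an adjusted p under 0.05, where 0.154% of all genes did in Hdac1 cKO, 0.708% in 5XFAD and 0.662% in compound against control mice. Without adjustment, 1 was higher and 2 were lower at p under 0.05 in Hdac1 cKO, 0 and 3 in 5XFAD and 0 and 2 in compound against control mice, where 11.7%, 10.7% and 10.5% of all genes passed in either direction. Acadl, the long-chain acyl-CoA dehydrogenase that SIRT3 deacetylates, was at 20.1 to 29.9 FPKM in control, 14.8 to 19.6 FPKM in Hdac1 cKO, 14.5 to 21.0 FPKM in 5XFAD and 15.3 to 22.2 FPKM in compound mice. Only the Hdac1 cKO mice lay wholly below the controls, which 2.15% of genes matched. The log2 differences from control, over the same control mice, were -0.54 (adjusted p = 0.133), -0.47 (adjusted p = 0.179) and -0.51 (adjusted p = 0.205). Its interaction was 0.50 (adjusted p = 0.427). Ndufa9, a subunit of respiratory complex I, was higher in compound than in 5XFAD mice by 0.27 (adjusted p = 0.700). Idh2, the mitochondrial isocitrate dehydrogenase, had the smallest p in compound against Hdac1 cKO mice (0.20, adjusted p = 0.650).

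The members did not vary as 1 block from mouse to mouse. Over the 21 pairs of sirtuins, Pearson's r of the deviations from the group means in 20 mice ran from -0.53 to 0.68 with a median of -0.15, and 8 pairs were above 0. These values are descriptions over mice that share libraries and are not tests. The 3 genes most like each member were chosen by the same r among genes averaging 5 FPKM or more. For Sirt3 they were Akr1a1, an aldehyde reductase (0.85), Zdhhc4, a palmitoyltransferase (0.84), and Slc30a1, a zinc exporter (0.79). For Sirt2 they were Parn, a poly(A) ribonuclease (0.81), Trap1, a mitochondrial chaperone (0.73), and Snx21, a sorting nexin (0.73). For Sirt1 they were Slc4a10, a bicarbonate transporter found in choroid plexus and neurons (0.78), Cdkn1c, an inhibitor of the cell cycle (0.77), and Atp2b3, a plasma membrane calcium pump (0.77). For Sirt4 they were Kat2a, a histone acetyltransferase (0.76), Ap3m1, an adaptor subunit of vesicle sorting (0.76), and Mras, a small GTPase (0.73). For Sirt5 they were Chpt1, of phosphatidylcholine synthesis (0.73), Aspa (0.72) and Gnpda2, of amino sugar metabolism (0.72). For Sirt6 they were Cldn26 (0.74), Ddit4, a stress-induced inhibitor of mTOR signalling (0.73), and B4galt6, of glycolipid synthesis (0.71). For Sirt7 they were Rhox8, a homeobox gene (0.75), Urgcp (0.73) and Bap1, a histone deubiquitinase (0.71). Each r was picked as among the highest over at least 8265 genes and says nothing of shared control.

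Other neighbours also touch the members in the mm9 annotation, and whether the counting used strand is not given in the sources used here. Sirt2 overlaps Nfkbib by 778 bases at its start and Rinl lies 304 bases from its end. Sirt3 overlaps Psmd13 by 342 bases at its start and Ric8 by 61 bases at its end. Dnajc12 lies 739 bases from the start of Sirt1, Ankrd24 lies 743 bases from the start of Sirt6, and Pcyt2 lies 436 bases from the end of Sirt7. Psmd13 was at 21.1 to 31.7 FPKM and Ric8 at 11.5 to 20.01 FPKM in the hippocampus, and their log2 differences between Hdac1 cKO and control mice were 0.047 and 0.15, against 0.30 for Sirt3. Nfkbib was at 4.53 to 9.35 FPKM, with a difference of 0.047 between compound and control mice against 0.34 for Sirt2.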

How the data were processed

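Hippocampal libraries were made by the authors with 3′ Digital Gene Expression, and libraries of GFAP+ nuclei, sorted with GFAP and NeuN antibodies, with SMART-Seq. Alignment by the authors was with Tophat2, and they deposited FPKM values, fragments scaled by transcript length and library size, from Cufflinks 2.0.0 with the UCSC annotation of mm9; for the nuclei only the submitters' processing notes on the series name these tools. Of 34 samples, 27 were used; 6 ChIP-seq samples and 1 control sample of GFAP+ nuclei were not analysed here. FPKM keeps no counts, but the most common FPKM ratio between libraries, over genes of low level, gave their relative depth. With that depth the steps of Sirt5, Sirt6 and Sirt7 gave whole fragments (within 0.15).

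Genes averaging 0.5 FPKM or more in the compared mice were tested on log2(FPKM + 1) with limma 3.58.1 in R 4.3.3 (trend, robust), only the compared groups entering a fit, with Benjamini-Hochberg adjustment over all genes; fold changes on this scale understate those of low genes. Mean effects and the interaction used all 20 hippocampal mice. Single sirtuins were also compared by two-sided exact permutation tests, 42 in all and unadjusted, and a sirtuin with a marker score by 100000 permutations within groups (scipy 1.17.1). Replicate numbers did not pair the mice. The members, lists and markers were chosen with earlier results of these data known. Named genes were the sirtuins, Hdac1, Thy1, Ttr, list members with an adjusted p under 0.05 or else the smallest p, the 3 most similar genes, and annotated neighbours within 1 kb; 1 list member that the rule names is not reported here. Promoters are RefSeq windows from GRCm38.p6. On simulated data limma recovered 37% of genes changed by 0.585 log2 and 96% of those changed by 1.5 in compound against control mice. In GFAP+ nuclei it recovered 6% and 74%. The changed genes were drawn from a middle range of levels. In compound against control mice Sirt1 and Sirt4 lay below that range, so these shares do not describe them.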

Additional observations from a re-analysis of the deposited data

Results flagged for a closer look

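Among 35 groups of 4 to 6 mice tested for a single distant value, 3 held one, and chance gives about 1 in 20. Compound mouse 1 had Sirt1 at 3.48 FPKM against 1.30 to 1.78 in the other compound mice, and it was also the compound mouse with the most Ttr. Compound mouse 4 had Sirt5 at 5.91 FPKM against 3.16 to 3.61 in the others. Hdac1 cKO mouse 5 had Sirt7 at 14.8 FPKM against 11.2 to 12.01 in the others.

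Sirt7 was also singled out because the difference with Hdac1 loss was not the same on both backgrounds at an unadjusted p under 0.05: the interaction was -0.76 on the log2 scale, but its adjusted p of 0.383 misses the threshold. The cause of none of these was tested.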

How the results depend on the processing

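In each of the 10 fits, 0 sirtuins had an adjusted p under 0.05. With the oligodendrocyte score as a covariate this became 1, Sirt5, in compound against Hdac1 cKO mice, in the mean effect of 5XFAD and over the 4 hippocampal groups, and leaving out single mice gave 0 to 1 in compound against Hdac1 cKO mice (1 without compound mouse 4) and 0 in the other fits. The cause was not tested. The replicate numbers did not pair the mice (correlations of same-numbered mice from -0.113 to 0.0778), and a replicate block left the count at 0 in every fit. At an unadjusted p under 0.05, the count of sirtuins also moved with the setting. In 5XFAD against control 0 became 1 without trend and robust moderation (Sirt1) or with all 4 groups (Sirt7). With the oligodendrocyte score compound against Hdac1 cKO lost Sirt7 (2 became 1) and the interaction gained Sirt5. Quantile normalization lost Sirt2 in the mean effect of Hdac1 loss, and the block added it in that of 5XFAD. In Hdac1 cKO against control 1 became 2 with median scaling, the block, the choroid plexus score or the oligodendrocyte score. The choroid plexus score placed Sirt6 and Sirt7 there without Sirt3, and the others added Sirt2 to Sirt3. That score largely coincided with the group in this comparison, so the fit cannot tell them apart. Leaving out single mice gave 1 to 2 there, 2 to 4 in compound against control, 0 to 1 in 5XFAD against control (1 without control mouse 1 or 3 or 5XFAD mouse 2), 1 to 4 in compound against 5XFAD (1 without 5XFAD mouse 1 or compound mouse 2 or 5), 1 to 2 in compound against Hdac1 cKO (1 without Hdac1 cKO mouse 5 or compound mouse 1 or 2), 0 to 1 in the nuclei (1 without control mouse 1), 1 to 3 for the mean effect of Hdac1 loss (1 without control mouse 3, Hdac1 cKO mouse 1 or 2, 5XFAD mouse 3 or compound mouse 4), 1 to 2 for that of 5XFAD (2 without compound mouse 1) and 1 to 2 in the interaction (2 without 5XFAD or compound mouse 4). The log2 differences below changed sign, all with p above 0.05 before and after. With the choroid plexus score as a covariate, Sirt1, Sirt2 and Sirt5 were at 0.39, -0.049 and -0.18 in Hdac1 cKO against control, Sirt4 and Sirt5 at -0.029 and 0.015 in 5XFAD against control, Sirt1 at 0.22 in compound against control, Sirt6 at 0.0085 in compound against Hdac1 cKO, Sirt1 and Sirt6 at 0.26 and -0.059 for the mean effect of Hdac1 loss, Sirt3 at -0.016 for the mean effect of 5XFAD and Sirt1 at -0.086 for the interaction. With the oligodendrocyte score, Sirt3 was at 0.034 in 5XFAD against control, Sirt2, Sirt3 and Sirt6 at -0.028, -0.022 and 0.11 in compound against Hdac1 cKO, Sirt2 at 0.0047 in GFAP+ nuclei and Sirt6 at -0.0041 for the mean effect of Hdac1 loss. With the replicate block, Sirt4 was at -0.10 in 5XFAD against control, Sirt6 at -0.034 in compound against control and -0.030 for the mean effect of Hdac1 loss, and Sirt3 and Sirt7 at -0.014 and -0.023 for the mean effect of 5XFAD. Without the choroid plexus genes, a setting chosen after seeing the data, Sirt6 was at -0.0093 for the mean effect of Hdac1 loss and Sirt3 and Sirt7 at -0.0039 and -0.00031 for that of 5XFAD. Quantile normalization put Sirt3 at 0.019 in 5XFAD against control and -0.0098 in the interaction, and median scaling put it at -0.0034 for the mean effect of 5XFAD and -0.0029 in the interaction.

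With each mouse left out in turn, ranges that crossed 0 were as follows. In Hdac1 cKO against control Sirt5 ran from -0.11 to 0.16 and Sirt6 from -0.029 to 0.23. In 5XFAD against control Sirt3 ran from -0.061 to 0.083, Sirt4 from -0.071 to 0.15 and Sirt5 from -0.31 to 0.049. In compound against control Sirt6 ran from -0.078 to 0.20 and Sirt7 from -0.26 to 0.081, and against 5XFAD Sirt1 ran from -0.14 to 0.098 and Sirt6 from -0.26 to 0.016. Against Hdac1 cKO Sirt1 ran from -0.25 to 0.025, Sirt3 from -0.047 to 0.075 and Sirt6 from -0.20 to 0.083. In GFAP+ nuclei Sirt2 ran from -0.27 to 0.14, Sirt3 from -0.032 to 0.25 and Sirt4 from -0.26 to 0.30. For the mean effect of Hdac1 loss Sirt6 ran from -0.073 to 0.067, and for that of 5XFAD Sirt3 from -0.027 to 0.047, Sirt6 from -0.0057 to 0.13 and Sirt7 from -0.067 to 0.10. In the interaction Sirt2 ran from -0.12 to 0.035, Sirt3 from -0.071 to 0.082 and Sirt4 from -0.024 to 0.20. Sirt5 in compound against control stayed between -0.87 and -0.61 and Sirt3 for the mean effect of Hdac1 loss between 0.26 and 0.34.

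For GFAP+ nuclei, the fit with 4 groups and the choroid plexus settings were not run. Counts of all genes with an adjusted p under 0.05 moved more. In Hdac1 cKO against control 22 became 9 without the filter, 8 without trend and robust moderation, 1 with all 4 groups in the fit, 0 with the block or the choroid plexus score and 6 with the oligodendrocyte score. In 5XFAD against control 102 became 48 with the block and 60 with the choroid plexus score. In compound against control 95 became 62 without trend and robust moderation, 220 with all 4 groups, 34 with the block and 28 with the choroid plexus score. In compound against Hdac1 cKO 211 became 114 with the oligodendrocyte score. In compound against 5XFAD 1 became 3 with all 4 groups and 2 with the choroid plexus score, in GFAP+ nuclei 2 became 5 with the block, and for the mean effect of Hdac1 loss 4 became 2 with the choroid plexus score. Leaving out single mice gave 2 (without control mouse 3) to 290 (without control mouse 1) in Hdac1 cKO against control, 2 (without control mouse 2) to 98 (without control mouse 1) for the mean effect of Hdac1 loss, 41 (without control mouse 4) to 105 in compound against control, 1 to 4 in compound against 5XFAD and 2 to 9 (without control mouse 4) in GFAP+ nuclei. Of the 3 most similar genes, Spearman's rho kept 2 for Sirt5, 1 for Sirt2, Sirt3 and Sirt6 and 0 for Sirt1, Sirt4 and Sirt7.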
